A study of Mus musculus with 6 samples.

Results

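The genes studied here are 9 mouse genes that make, bind, read or break down retinoic acid. They are the retinaldehyde dehydrogenases Aldh1a1, Aldh1a2 and Aldh1a3, the retinoic acid receptors Rara, Rarb and Rarg, the retinoic acid binding proteins Crabp1 and Crabp2, and the hydroxylase Cyp26b1. They were picked by their role in the pathway, with no cut on their values, from the 52636 genes of the count table, and each symbol matched 1 Ensembl gene. RNA was sequenced from 3 biological replicates each of J110 and SSM3, a pair of mouse mammary tumour lines grown in culture. J110 cells came from mice with an AIB1 cDNA transgene driven by the MMTV LTR, a promoter active in mammary epithelium, and SSM3 cells from tumours of 129SvEv mice. Both media held DMEM/F12, serum, insulin and hydrocortisone, but SSM3 cells had more serum and CO2, and also glutamine, β-mercaptoethanol and transferrin, so that line and culture cannot be told apart. Each genotype is represented by 1 line, and no age, treatment or time is given.

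Retinoic acid is made from vitamin A in 2 steps. Alcohol and short-chain dehydrogenases turn retinol into retinaldehyde in a reversible step, and the ALDH1A enzymes oxidise retinaldehyde to retinoic acid in an irreversible one. Retinoic acid then binds RAR proteins, which sit with RXR partners on direct repeats in DNA and switch from repression to activation, while CYP26 enzymes hydroxylate it for clearance. In the mammary gland, ALDH activity is used to mark stem and progenitor cells, and Aldh1a3 is a marker of luminal progenitors.

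The lines differed in which of these genes they expressed. In SSM3, Aldh1a3 and Crabp2 were higher, while Aldh1a1, Rara and Cyp26b1 were lower, and so was Rarg by a small margin that some alternatives did not call. Aldh1a2, Rarb and Crabp1 were hardly counted in either line. Of the 9 genes, 6 passed the filter on low counts and were tested, and all 6 tested had an adjusted p below 0.05 in edgeR's quasi-likelihood test, 2 of them higher and 4 lower in SSM3. This is read against a background in which 77.7% of the 12284 genes tested were called, 38.5% higher and 39.2% lower in SSM3. The libraries of the lines did not overlap for the same 6 genes, as for 79.6% of all genes tested. A change of at least 4-fold was seen in 5 of the 6, where the share among all genes tested was 21.7%. Aldh1a1 and Crabp2 passed the filter only through the line in which they were high, so they had to differ. Of the 4 genes with at least 10 counts in every library, 3 changed at least 4-fold, against 7.88% of the 9686 genes that met this condition. Both counts depend on the scaling, since Rara and Cyp26b1 lay close to 4-fold. With library size alone they were at -1.88 and -1.97 on the log2 scale, and the counts fell to 3 of 6 and 1 of 4. Without SSM3 replicate 2, where Rara was at -1.92, they were 4 of 6 and 2 of 4.

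Total counts per library were between 4200785 and 5416305, and 3 counts in a library correspond to 0.578 to 0.668 CPM, the floor used below, where CPM are counts scaled to a common library total after TMM adjustment. Reads were taken from the 3′ ends of transcripts, and levels are compared between libraries for 1 gene, not between genes. Ncoa3, the gene of AIB1, had 102 to 110 counts in J110 and 181 to 199 in SSM3. The transgene's 3′ end is not given in the sources used here, so these counts do not check it, and J110 and SSM3 stand below for the labels of the libraries, on which every direction rests. The 6 epithelial markers summed to 3061 to 3196 CPM in J110 and 12816 to 14146 CPM in SSM3, but not evenly. Epcam was at 0.681 ± 0.681 CPM in J110, with 2, 1 and 7 counts, against 507 ± 24.8 CPM in SSM3, and Cdh1 at 4.02 ± 1.83 against 1374 ± 47.8 CPM (± SD, n = 3). Krt19 was also higher in SSM3 (18.6 against 7412 CPM), while Krt18 was lower (1430 against 970 CPM), so J110 was near the floor for Epcam, a defining epithelial marker. The part of these differences in the results below was not tested. Adipoq, Plin1, Col1a2, Lum and Tie1 had no count in any library. Kdr had 8, 11 and 6 counts and Col1a1 5, 6 and 5 in J110, with none in SSM3. Pdgfra had 3, 1 and 4 counts in J110 and 2, 9 and 2 in SSM3. The 4 leukocyte markers summed to 14.8 to 22.2 CPM in J110 and 1.19 to 2 CPM in SSM3, most of it Cd68. These are bulk RNA measurements, in which fewer cells that express a gene and less RNA per cell cannot be told apart.

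J110 replicate 3 and SSM3 replicate 2 stood apart by small counts at genes specific to the opposite line. Over 81 genes that were high in SSM3, with at least 100 CPM there and under 1% of that in J110, J110 replicate 3 held 0.355% of the SSM3 level against 0.159% and 0.149% in replicates 1 and 2. Over 67 such genes of J110, SSM3 replicate 2 held 0.474% of the J110 level against 0.281% and 0.187%. Of genes described below, the counts of Dhrs3 in J110 replicate 3 were 2.71% of its SSM3 level. Those of Crabp2, which had no count in J110 replicates 1 and 2, were 8.45%. Some genes went otherwise. Stra6 was at 13.7% in J110 replicate 1 and 0 in replicate 3, and Fabp5 at 7.1% in SSM3 replicate 1 against 3.08% in replicate 2. The part of such counts in these values was not tested. With both libraries left out, 5 of the 6 retinoic acid genes tested were still called, 2 higher and 3 lower in SSM3, and Rarg was not (-0.33 on the log2 scale, adjusted p = 0.104). Of 39 further retinoid genes described below, the 20 then called were 13 higher and 7 lower in SSM3.

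**Figure D1:**
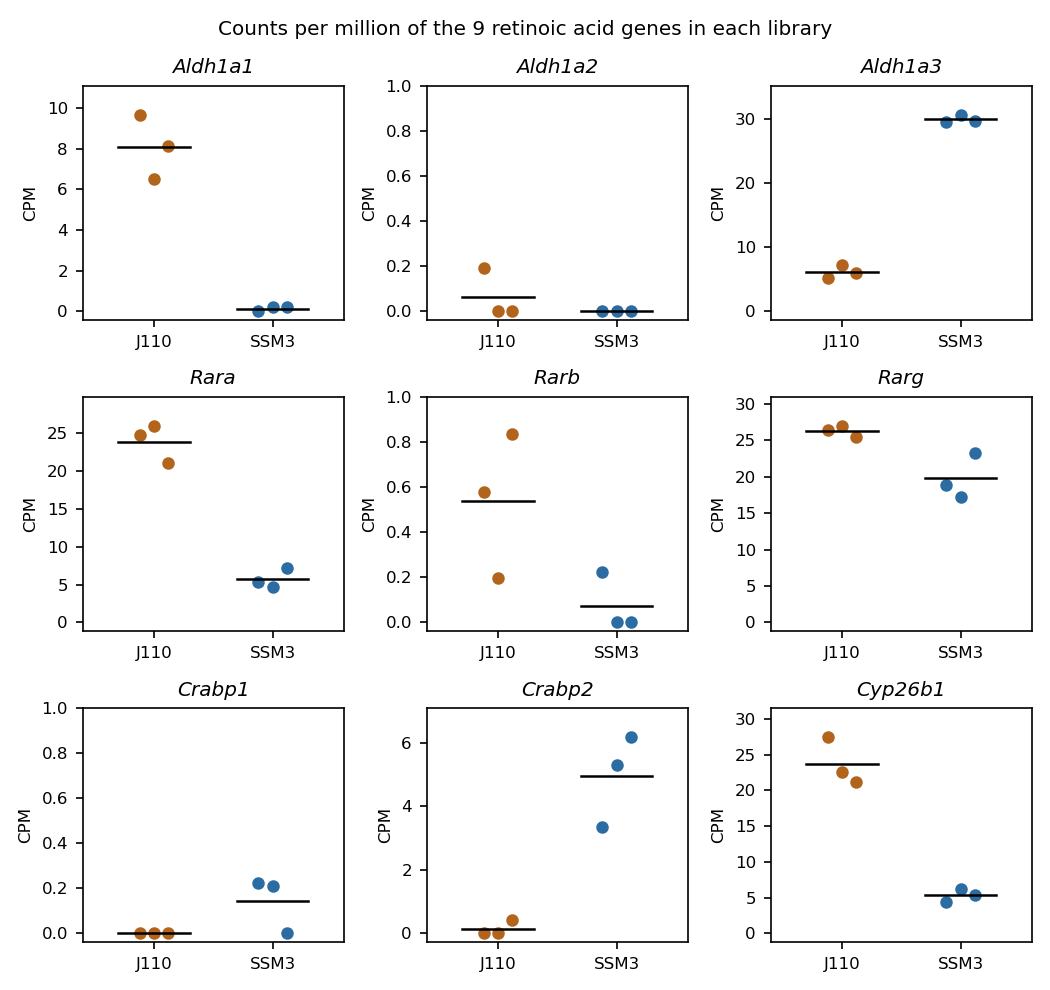
Level in CPM (linear axes that start at 0 and differ between panels) of the 9 genes, with 1 point per library, J110 in orange, SSM3 in blue and a black line at the mean of 3 libraries. The lines do not overlap for Aldh1a1, Aldh1a3, Rara, Rarg, Crabp2 and Cyp26b1, while Aldh1a2, Rarb and Crabp1 stay below 1 CPM in every library.

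Among the retinaldehyde dehydrogenases, the enzymes that commit retinaldehyde to retinoic acid, Aldh1a1 and Aldh1a3 were both counted in J110, and in SSM3 Aldh1a3 was higher and Aldh1a1 nearly absent. Their coding sequences are related, with 70.1% of aligned bases identical between Aldh1a1 and Aldh1a2 and 68.6% between Aldh1a1 and Aldh1a3. Aldh1a7, a close relative of Aldh1a1 in rodents, is 91.6% identical to it, so the last 90 coding bases, stop codon included, are given to show how far reads near the 3′ end can separate the 4 genes. They were read from GENCODE transcripts of GRCm38, and capitals mark bases that differ from Aldh1a1 at the same distance from the stop codon.
Aldh1a1: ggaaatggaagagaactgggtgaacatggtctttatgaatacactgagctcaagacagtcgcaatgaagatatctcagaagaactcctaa
Aldh1a7: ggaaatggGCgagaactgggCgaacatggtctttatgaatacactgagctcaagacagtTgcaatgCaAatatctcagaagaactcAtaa
Aldh1a2: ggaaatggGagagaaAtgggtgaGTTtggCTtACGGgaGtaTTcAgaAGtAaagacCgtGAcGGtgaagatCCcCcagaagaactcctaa
Aldh1a3: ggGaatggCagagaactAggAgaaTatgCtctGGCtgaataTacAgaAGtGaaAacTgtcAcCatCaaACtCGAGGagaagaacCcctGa
Within this stretch Aldh1a7 differed from Aldh1a1 at 7 bases, Aldh1a2 at 26 and Aldh1a3 at 28. Across the last 500 bases of 1 transcript of each of the 9 genes and of Aldh1a7, none of the 426 possible 75-base reads of each gene occurred in a transcript of another gene.

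All coordinates are on mm10. Aldh1a1 (ENSMUSG00000053279) lies on chromosome 19 between 20492715 and 20643465, on the forward strand. It had 50, 33 and 39 counts in J110 replicates 1 to 3, which are 9.64, 6.53 and 8.14 CPM. In SSM3 it had 0, 1 and 1 counts, so every J110 library lay far above every SSM3 library. Over the summed counts it was 57.7-fold lower in SSM3, with a 95% exact interval for counting error of 15.6 to 482, and edgeR's adjusted p was 7.69e-10. The SSM3 counts lie under the floor of 3 per library, where low counts from the other line cannot be separated from expression.

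Aldh1a3 (ENSMUSG00000015134, reverse strand of chromosome 7 between 66390890 and 66427517) went the other way. It had 27, 37 and 29 counts in J110, or 5.21, 7.32 and 6.05 CPM, and 133, 144 and 150 counts in SSM3, or 29.6, 30.6 and 29.8 CPM. The 3 SSM3 libraries lay close together and all above the J110 libraries. The mean was 30.0 ± 0.503 CPM in SSM3 against 6.19 ± 1.06 CPM in J110 (mean ± SD of n = 3). On the log2 scale SSM3 exceeded J110 by 2.27 (SE 0.17), or 4.84-fold, and edgeR's test gave an adjusted p of 1.29e-11. The luminal progenitor marker was thus counted in both lines, at the higher level in SSM3.

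Aldh1a2 (ENSMUSG00000013584, forward strand of chromosome 9 between 71215789 and 71296243), the main retinaldehyde dehydrogenase of the early embryo, had 1 count in J110 replicate 1 and none in the other 5 libraries. It was not detectable at this depth. The share of Aldh1a1 among the summed counts of Aldh1a1 and Aldh1a3 does not depend on how libraries are scaled. It was 64.9%, 47.1% and 57.4% in the J110 libraries, with Wilson 95% intervals that together span 35.9% to 74.7%. In SSM3 replicate 1 it was 0 of 133 counts, which allows a share of up to 2.26% (3 counts of the total) and has an upper Wilson limit of 2.81%. In replicates 2 and 3 it was 0.690% and 0.662%, with upper Wilson limits of 3.80% and 3.66%. The shares of the lines did not overlap, and a two-sided exact permutation test gave p = 0.1, which is as low as 3 libraries against 3 can go.

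**Figure D2:**
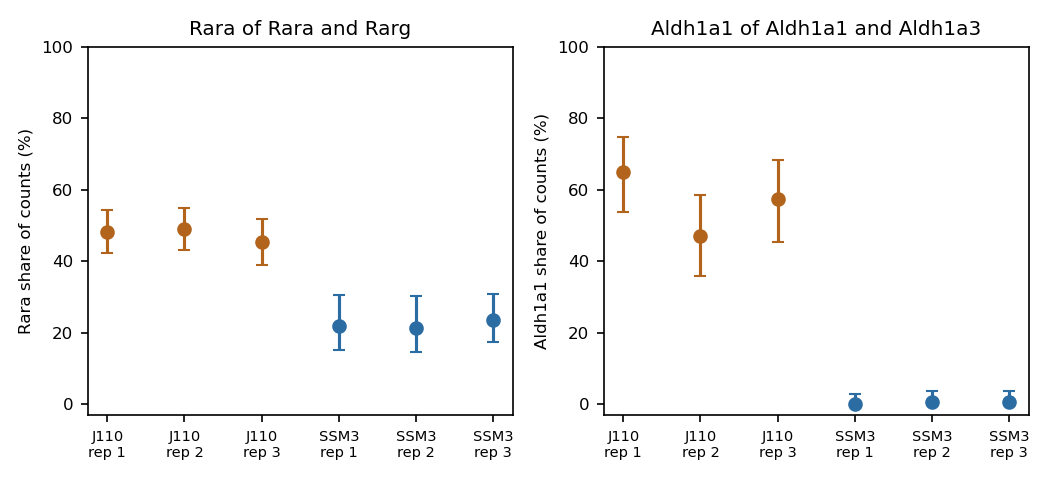
Share of Rara in the summed counts of Rara and Rarg (left) and of Aldh1a1 in those of Aldh1a1 and Aldh1a3 (right), in percent on linear axes, for each J110 (orange) and SSM3 (blue) library, with Wilson 95% intervals that cover counting error only. The Rara share is 45.3% to 49.1% in J110 and 21.4% to 23.5% in SSM3, and the Aldh1a1 share is 47.1% or more in J110 and under 1% in SSM3.

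The receptors are the proteins through which retinoic acid acts on genes. RARα and RARγ, encoded by Rara and Rarg, were both counted in both lines, and Rara showed the larger difference. Rara (ENSMUSG00000037992, forward strand of chromosome 11 between 98927818 and 98974942) had 128, 131 and 101 counts in J110, or 24.7, 25.9 and 21.1 CPM. In SSM3 it had 24, 22 and 36 counts, or 5.34, 4.67 and 7.16 CPM, so that the highest SSM3 library was well below the lowest J110 library. Rara was 4.14-fold lower in SSM3, with a log2 value of -2.05 (SE 0.19) and 7.66e-10 as the adjusted p of edgeR's test.

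Rarg (ENSMUSG00000001288, reverse strand of chromosome 15 between 102234938 and 102257517) had 137, 136 and 122 counts in J110, or 26.4, 26.9 and 25.5 CPM, and 85, 81 and 117 counts in SSM3, or 18.9, 17.2 and 23.3 CPM. The libraries of the lines did not overlap, but SSM3 replicate 3 came within 3 CPM of the lowest J110 library. The fitted log2 difference was -0.40 (SE 0.14), and edgeR's test gave an adjusted p of 0.0140. This call was lost without SSM3 replicate 2 (-0.30, adjusted p = 0.0873) and with scaling to library size alone (-0.23, adjusted p = 0.149). The adjusted p of Rarg ranged between 0.00211 and 1 across the alternatives. As a share of the counts on Rara and Rarg, Rara made up 48.3%, 49.1% and 45.3% in J110 and 22.0%, 21.4% and 23.5% in SSM3, again without overlap (two-sided exact permutation p = 0.1, as low as this design goes). The ratio of Rara to Rarg thus differed between the lines whatever the scaling.

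Rarb (ENSMUSG00000017491, reverse strand of chromosome 14 between 16430839 and 16819156) encodes RARβ, and is known as a gene that retinoic acid itself induces through a direct repeat in its promoter. It had 3, 1 and 4 counts in J110 and 1, 0 and 0 in SSM3, an average under the floor in both lines, and was not tested. Its exons share 1793 bases with exons of Top2b on the opposite strand, which had 601 to 1249 counts per library. The promoter was searched for the direct repeat with a spacer of 5 bases, written from the 5 shared letters of each arm as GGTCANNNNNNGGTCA, GGTCANNNNNNGTTCA, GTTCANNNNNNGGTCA and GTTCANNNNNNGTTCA on both strands. A repeat with a spacer of 2 bases was searched with the same arms, as GGTCANNNGGTCA, GGTCANNNGTTCA, GTTCANNNGGTCA and GTTCANNNGTTCA. Any match to the first set was found in 0.247% of 32851 RefSeq promoter windows of GRCm38.p6, all of equal length around the start of a gene, and any match to the second in 0.399%.

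Promoters were given for 7 of the 9 genes and for 46 of the 61 genes once the longer lists below are added, and 2 of these 46 genes held a match, Rarb and Cyp26a1. The latter encodes the other widely studied retinoic acid hydroxylase, and had no count in any library. Both matches were of the 5-base spacer, and both windows are printed because they are the sequences in these lists with that repeat. The Rarb window is chr14:16575427-16575726 on the reverse strand and the Cyp26a1 window chr19:37697558-37697857 on the forward strand, both 5′ to 3′ along the gene, with the match in capitals (on the opposite strand to the gene in Cyp26a1).
Rarb: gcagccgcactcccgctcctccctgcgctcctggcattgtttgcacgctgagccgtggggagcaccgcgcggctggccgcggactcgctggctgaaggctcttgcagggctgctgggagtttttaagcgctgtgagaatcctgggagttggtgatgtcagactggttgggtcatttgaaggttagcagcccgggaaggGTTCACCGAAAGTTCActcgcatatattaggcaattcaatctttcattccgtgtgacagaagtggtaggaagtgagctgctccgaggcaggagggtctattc
Cyp26a1: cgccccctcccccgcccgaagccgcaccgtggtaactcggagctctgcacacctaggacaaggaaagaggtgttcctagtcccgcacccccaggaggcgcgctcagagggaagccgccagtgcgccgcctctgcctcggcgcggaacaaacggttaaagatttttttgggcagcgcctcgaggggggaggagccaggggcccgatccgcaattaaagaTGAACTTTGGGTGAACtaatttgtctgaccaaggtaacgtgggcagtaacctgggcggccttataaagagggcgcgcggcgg
Both genes whose windows held the repeat thus averaged under the floor in both lines. Where these letters were not found, nothing follows about binding.

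The binding proteins carry retinoic acid in the cytosol, and CRABP2 is known for handing it to RARs in the nucleus. Crabp2 (ENSMUSG00000004885, forward strand of chromosome 3 between 87948666 and 87953376) had 15, 25 and 31 counts in SSM3, or 3.34, 5.31 and 6.17 CPM, and 0, 0 and 2 counts in J110. All SSM3 libraries lay above the J110 libraries, at a low level. Over the summed counts it was 37.5-fold higher in SSM3 (95% exact interval for counting error 10 to 316, adjusted p = 1.50e-07 from edgeR's test). Both of its J110 counts fell in replicate 3, without which the fitted log2 fold change moved from 4.98 to 7.61. Crabp1 (ENSMUSG00000032291, forward strand of chromosome 9 between 54764748 and 54773110) had 1, 1 and 0 counts in SSM3 and none in J110, and was not detectable in either line at this depth. The coding sequences of Crabp1 and Crabp2 are 70.8% identical over 414 aligned bases.

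Cyp26b1 (ENSMUSG00000063415, reverse strand of chromosome 6 between 84571414 and 84593908) encodes an enzyme that hydroxylates retinoic acid and so limits its action. It had 142, 114 and 101 counts in J110, or 27.4, 22.5 and 21.1 CPM, and 20, 29 and 27 counts in SSM3, or 4.45, 6.16 and 5.37 CPM. No library of one line reached the level of the other. Cyp26b1 was 4.42-fold lower in SSM3, at -2.14 on the log2 scale (SE 0.19), with 4.08e-10 as edgeR's adjusted p. Cyp26a1 and Cyp26c1, the other CYP26 hydroxylases, had no count in any library, so Cyp26b1 was the only one of the 3 detected here.

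**Figure D3:**
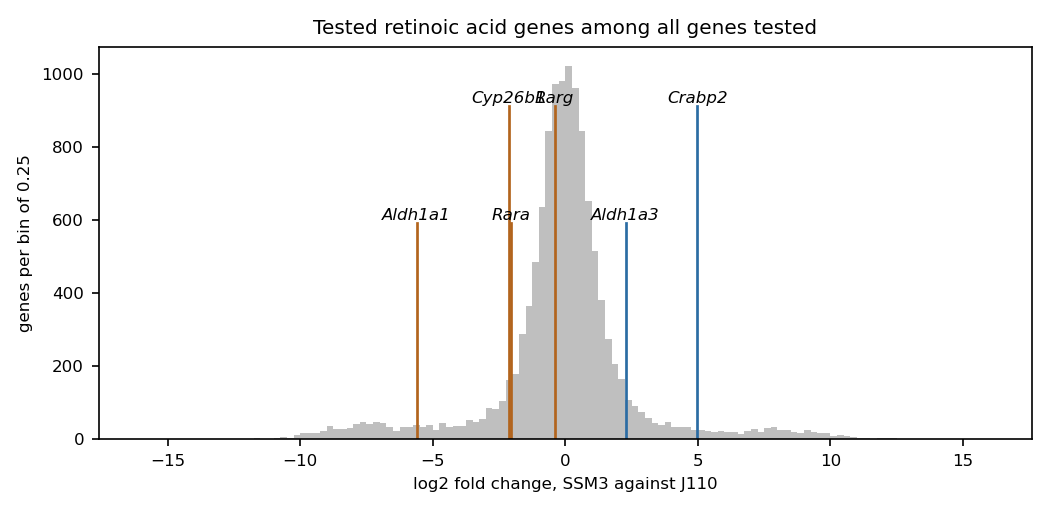
Distribution of the log2 fold change, SSM3 against J110, over all 12284 genes tested (grey, genes per bin of 0.25), with vertical lines at the fitted values of the 6 retinoic acid genes tested, orange where lower and blue where higher in SSM3. Rarg, at -0.40, lies near the centre of the distribution, and the other 5 lie beyond 2 in either direction.

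A list of 39 other genes of vitamin A handling was examined beside them. Of these, 23 were tested, and 13 were higher and 8 lower in SSM3 at an adjusted p below 0.05 from edgeR's test, where 77.7% of all genes tested were called, 38.5% higher and 39.2% lower. Their median log2 fold change was 0.60, and the median size regardless of direction was 1.49, against -0.014 and 0.84 for all genes tested. Of the 23, 8 had under 10 counts in some library, several of them near 0 in one line, and such genes pass the filter only with a large difference, so the median size is given as a description alone. The list did not move one way. Its groups, in the order of the pathway, are described next.

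In the uptake and storage group, 4 of 8 genes were tested and all 4 tested were higher in SSM3. Of all genes tested, 38.5% were higher in SSM3. All of the 4 but Dgat1 passed the filter only through SSM3, and so had to be higher. Rbp4, the retinol carrier of plasma, had 308, 247 and 342 counts in SSM3 and 1 count in all J110 libraries together, a ratio of 948 (95% exact interval 170 to 37488, adjusted p = 1.32e-17). The single J110 count of Rbp4 was in replicate 1, and leaving that library out moved the fitted log2 fold change from 9.42 to 11.24. Stra6, the membrane receptor for RBP4, had 12, 16 and 12 counts in SSM3 and 2, 0 and 0 in J110, a ratio of 21.1 (95% exact interval 5.48 to 181, adjusted p = 7.18e-06). The fitted log2 fold change of Stra6 was 4.16, and 6.77 without J110 replicate 1. Dgat1, which can esterify retinol among other lipids, was 3.88-fold higher in SSM3 (adjusted p = 8.18e-12). Lrat, the main retinol esterifying enzyme, had no count in any library.

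The retinol and retinaldehyde interconversion group had 10 of 17 genes tested, 4 higher and 4 lower in SSM3 and 2 not called, a share near the 77.7% of all genes. Rdh10, the retinol dehydrogenase that supplies retinaldehyde in many tissues, had 892, 918 and 894 counts in J110 and 374, 475 and 480 in SSM3. The mean fell from 180 ± 7.42 CPM in J110 to 93.2 ± 9.02 CPM in SSM3 (± SD, n = 3), a 1.93-fold difference (adjusted p = 5.53e-10). Dhrs9, another retinol dehydrogenase, had 207, 223 and 207 counts in J110 and none in any SSM3 library, at least 66.9-fold lower against a floor of 3 counts per library (adjusted p = 4.23e-16). Adh7, a class IV alcohol dehydrogenase active on retinol, went the other way, with 13.8 ± 0.784 CPM in J110 against 113 ± 9.16 CPM in SSM3 (± SD, n = 3), 8.23-fold higher (adjusted p = 2.34e-17).

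Dhrs3, which turns retinaldehyde back to retinol, had 2, 7 and 14 counts in J110 and 431, 529 and 581 in SSM3. It was 69.4-fold higher in SSM3 (6.12 on the log2 scale, SE 0.24, edgeR's adjusted p = 3.00e-12), and without J110 replicate 3 the log2 fold change was 6.89. Among the other genes of the group, Rdh13 was 2.25-fold higher. Rdh5, a retinol dehydrogenase known from the visual cycle, was 1.51-fold higher, but it shares exon bases with Bloc1s1, whose counts were within 10 of its own in every library, so its value is uncertain. Adh5, a class III alcohol dehydrogenase, and Dhrs4 were lower in SSM3 by 0.30 and 0.40 on the log2 scale (adjusted p = 0.00335 and 0.0224). Scaling to library size alone ended both calls, with adjusted p of 0.207 and 0.194. Dhrs4 had overlapping libraries and was not called by DESeq2 (adjusted p = 0.0697), and its call was also lost without J110 replicate 2 (adjusted p = 0.0996), J110 replicate 3 (0.0676), SSM3 replicate 2 (0.0721) or SSM3 replicate 3 (0.0563). Across the alternatives its adjusted p lay between 0.00707 and 1. Rdh11, at 54.5 CPM in both lines, was not called (log2 fold change 0.00, standard error 0.13). Rdh14 was at 0.35 (standard error 0.17, adjusted p = 0.0581), and passed the threshold without J110 replicate 1 (adjusted p = 0.0371) or SSM3 replicate 3 (0.0130), with library size alone (0.00807), after thinning to the smallest total (0.0276) and with the replicate number as a block (0.0491).

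Among relatives of the ALDH1A enzymes, Aldh1a7 had 44, 46 and 47 counts in SSM3 and 1, 0 and 1 in J110, so this gene and Aldh1a1, the close copies shown above, were high in different lines. The ratio over the summed counts of Aldh1a7 was 72.4 (95% exact interval 19.7 to 604, adjusted p = 6.82e-11). Aldh2, the mitochondrial enzyme that clears acetaldehyde, had 2001, 2103 and 1813 counts in J110 and 26, 23 and 23 in SSM3, 77.3-fold lower (adjusted p = 4.87e-23). Aldh3a1 had 60, 67 and 91 counts in J110 and none in SSM3, at least 23.0-fold lower against the floor of 3 counts per library (adjusted p = 4.76e-11). With the gene without SSM3 counts set at its bound, the median log2 fold change of the 3 relatives tested was -4.52, and -6.27 as fitted.

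Of the receptor partners, Rxra and Rxrb, which pair with RARs, were both higher in SSM3, where Rara was lower. Rxra was at 20.4 ± 0.530 CPM in J110 against 48.2 ± 3.69 CPM in SSM3 (± SD, n = 3), 2.36-fold higher (adjusted p = 2.25e-09), and Rxrb was 1.53-fold higher (adjusted p = 0.000259). Rxrg had no count in any library. The corepressor Ncor1, which RARs hold without ligand, was 1.21-fold higher in SSM3 (adjusted p = 0.000999). Fabp5, a fatty acid binding protein that can carry retinoic acid to PPARδ, had 184, 157 and 177 counts in J110 and 11, 5 and 7 in SSM3, 21.0-fold lower (adjusted p = 1.47e-14). Ppard, the gene of that receptor, was also lower, 2.81-fold (adjusted p = 1.36e-10). The carriers Crabp2 and Fabp5 were thus high in different lines.

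**Figure D4:**
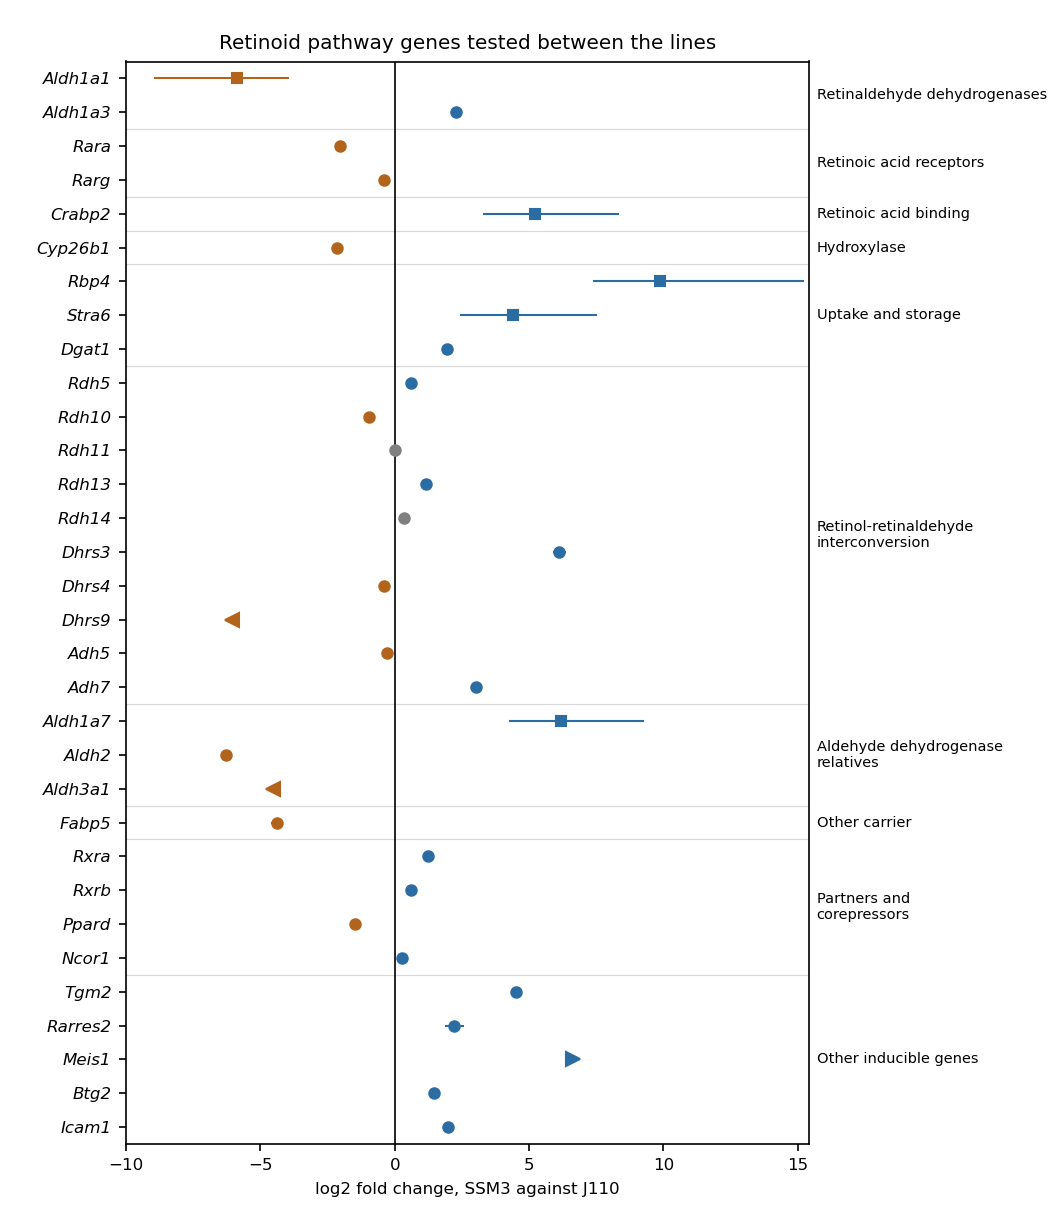
Log2 fold change, SSM3 against J110, of tested retinoid genes by role, blue where called higher in SSM3, orange where called lower and grey where not called. Circles are fitted values with standard errors, many of them smaller than the symbol, squares are ratios of summed counts with 95% exact counting intervals where one line had 1 to 3 counts in all, and triangles are lower bounds where one line had none. Uptake and storage genes lie to the right, and the interconversion genes on both sides of 0. Rbp4 and Stra6 passed the filter only through SSM3, and so had to lie to the right.

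The last list holds 18 genes that retinoic acid is known to raise in many cell types, without Rarb, Cyp26b1 and Crabp2, which are also such genes. Of the 18, 8 were tested and these 8 were all higher in SSM3, as were 38.5% of all genes tested. Their median log2 fold change was 4.35, against -0.014 for all genes tested. Without Icam1 and Rarres2, whose counts cannot be told from those of overlapping genes, 6 were tested and 6 were higher, with a median of 5.33. Several of the 8 passed the filter only through SSM3, and so had to be higher. Tgm2, a transglutaminase, had 172, 159 and 159 counts in J110 and 3263, 3803 and 3669 in SSM3. Its means were 32.6 ± 0.993 and 755 ± 45.8 CPM (SD, n = 3 each), 23.1-fold higher in SSM3 (4.53 on the log2 scale, SE 0.084, edgeR's adjusted p = 5.94e-23). Tgm2 shares exon bases with Rprd1b on the opposite strand, which had 77 to 128 counts. Meis1, a homeobox cofactor, had 240, 284 and 318 counts in SSM3 and none in J110, at least 98.5-fold higher (adjusted p = 4.49e-17).

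Dhrs3 and Stra6, described above, are also on this list. Btg2, an antiproliferative gene, was 2.72-fold higher in SSM3 (adjusted p = 2.93e-09), with 61 to 76 counts in J110 and 155 to 206 in SSM3. Icam1 was 3.99-fold and Rarres2 4.67-fold higher, but each shares exon bases with a gene on the opposite strand that had nearly or exactly the same counts, Gm47079 and Lrrc61, so neither value can be given to 1 gene. The other 10 genes were too low to test, and Hoxb1, Stra8, Cdx1 and Rarres1 had at most 1 count in any library. The genes of this list that were higher in SSM3 thus stood beside higher Crabp2, lower Rara and Cyp26b1 and barely counted Rarb.

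By their profile over the 6 libraries in log2 CPM, the genes most like Aldh1a3 among 9059 genes with at least 10 CPM were Plekhh1 (Pearson r = 0.9998), Rpn2 (0.9997) and Pigh (0.9996). With 2 lines of 3 libraries such values mostly follow the difference between the lines, and 2349 genes had an r above 0.95. Plekhh1 had 35, 54 and 37 counts in J110 and 345, 381 and 383 in SSM3, and Pigh had 34, 52 and 42 counts in J110 and 329, 354 and 362 in SSM3. Plekhh1 and Pigh share 992 exon bases on opposite strands, so their similar counts may hold the same reads and cannot be taken as 2 separate genes.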

How the data were processed

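Libraries of 3 J110 and 3 SSM3 cultures were made with the QuantSeq 3′ kit and sequenced from one end over 75 bases. Reads were trimmed by the authors with cutadapt (2.1), aligned to mm10 using HISAT2 (2.0.4) and counted over genes with featureCounts (Subread 2.0.0), and the authors deposited raw counts without normalisation. The strand setting and annotation release are not given in the sources used here. Some genes that overlap had equal or nearly equal counts (Rarres2 and Lrrc61, Icam1 and Gm47079), so some reads were counted for both.

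Symbols and mm10 coordinates came from GENCODE M21, which matched 52403 identifiers (99.6%). The filter on low counts was filterByExpr, and TMM-scaled counts were compared in all 6 libraries with the quasi-likelihood test of edgeR (4.0.16, R 4.3.3), with Benjamini-Hochberg adjustment over 12284 genes and a threshold of 0.05. The standard error was the log2 fold change divided by the square root of F. Where one line had no count, a fold was taken against 3 counts per library, and where it had 1 to 3 in all, the ratio of summed counts was given with an exact interval in place of a bound. No molecular identifiers are described, so intervals cover counting error only, and p-values rest on the spread of 3 cultures per line. Overlaps were found with bedtools (2.31.1). Simulated 2-fold changes were recovered for 89 of 100 genes and 4-fold changes for 95 of 100, among 11991 tested, with 7 of 191 calls false. So few changed genes, in both directions, leave the scaling almost untouched. The simulation thus does not cover data in which 77.7% of genes were called. Named genes are the 9 members, the listed genes called with at least 10 CPM in a line, genes sharing their exons, and the 3 most like Aldh1a3. Stra6, Aldh1a7, Rarres2, genes at the floor and genes not called were named after their values were seen. The members and lists were chosen with earlier results of these data known. Some items, which the list counts include, are not reported here by name.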

Additional observations from a re-analysis of the deposited data

How the results depend on the processing

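Over 16 alternatives set with the comparison, and 1 chosen after seeing the data that left out J110 replicate 3 and SSM3 replicate 2, the 6 retinoic acid genes tested kept their direction in all 100 values and their call in 96. The 4 lost calls were all of Rarg, whose log2 fold change was -0.23 with library size only, -0.40 with glmTreat, which tests for more than a 2-fold change, -0.33 without the pair of libraries, and from -0.54 to -0.30 when each library was left out in turn. When each library had to hold 10 or more counts of a gene, Aldh1a1 and Crabp2 dropped out by construction. Fewer genes were then tested, and 13 of 15 in the wider list and 3 of 3 in the inducible list were called. Among all genes, 7283 of 9686 were called under that filter. Under glmTreat, 13 of 23 genes tested in the wider list, 8 of 8 in the inducible list and 4245 of all 12284 were called. With library size only, the median of all genes moved from -0.014 to 0.161, and the genes called split into 5370 higher and 4133 lower in place of 4733 and 4813. Rdh11, which was not called, changed sign in 8 of 17 alternatives, to 0.17 with library size only, 0.02 with a filter of 1 count in any library, 0.01 after thinning to the smallest total count, 0.04 without the pair of libraries and -0.13 to 0.12 without each library. Same-numbered replicates of the lines deviated together with correlations across genes of only 0.0118, 0.0155 and 0.0268, so the numbers were not taken as pairs, and with the replicate number as a block 6 retinoic acid genes and 9480 of all genes were called. Aldh1a2, Rarb and Crabp1 were tested only with the filter of 1 count in any library, where they were not called. Whether depth or lack of expression lies behind their low counts was not tested.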
